A study of Mus musculus with 8 samples.

Results

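The nuclear genes of the respiratory chain were examined in liver RNA-seq counts, complex by complex. They were taken as the rows of the count table whose mouse symbol begins with Nduf (followed by a, b, c, s or v and a number, or Ndufab1), Uqcr, Cox4 to Cox8 or Atp5, or is Sdha, Sdhb, Sdhc or Sdhd, and whose annotated type is protein-coding. This rule found 85 of 46078 genes: 38 in complex I, 4 in complex II, 8 in complex III, 18 in complex IV and 17 in complex V. A further 11 rows matched by symbol but were processed pseudogenes, and they were left out. The livers were 5 wild-type (WT) and 3 Rbfox2 knockout (Rbfox2 KO) samples, all from mice that drank water with 30% (w/v) fructose for 22 weeks. According to the study, both genotypes carried Rbfox2 alleles flanked by loxP sites, and the knockouts also carried a Cre recombinase driven from the albumin promoter, which the WT mice lacked. This Cre acts in hepatocytes, so the other cell types of the liver keep the gene. The mice were 8 weeks old when the diets began, and males were used unless stated otherwise. The sample labels state that the mice were fasted.

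The respiratory chain passes electrons from NADH (complex I) and succinate (complex II) through complex III to complex IV, which reduces oxygen. Complexes I, III and IV pump protons across the inner mitochondrial membrane, and complex V, the ATP synthase, uses the proton gradient to make ATP. Complex II is encoded wholly by nuclear genes, whereas the others combine nuclear subunits with the 13 subunits encoded in mitochondrial DNA. Hepatocytes are rich in mitochondria and depend on this chain for gluconeogenesis, urea synthesis and fatty acid oxidation. Several subunits of complex IV exist as paired isoforms, one used in most tissues and another in muscle, lung or testis.

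Total counts per library ran from 24829693 to 37823155, and 3 counts, taken as the smallest level a library can show, equalled 0.0838 to 0.118 CPM, the count of a gene scaled to a common library size. The 85 genes took between 0.898% (Rbfox2 KO 3, 95% Wilson interval 0.895 to 0.901%) and 1.38% (Rbfox2 KO 1, 1.37 to 1.38%) of all counts. Rbfox2 itself averaged 18.9 ± 3.39 CPM over the WT livers against 9.27 ± 2.83 CPM over the Rbfox2 KO livers, with no overlap, and the two-sided exact permutation test gave p = 0.0357, the smallest that 5 against 3 samples allow. Its log2 fold change was -1.03 ± 0.21, and adjusted over all genes the test of edgeR, named below, gave 0.328 for it. Here and below, the error of a group mean is the SD (n = 5 WT, n = 3 Rbfox2 KO) and that of a log2 fold change is the standard error (SE). All 6 hepatocyte markers found were high in every liver, at a sum of 65698 to 79481 CPM. The livers differed in transcripts of other tissues. The 12 skeletal muscle genes examined summed to 303 CPM in WT 4, 415 CPM in WT 5 and 253 CPM in Rbfox2 KO 1, and to between 1.41 and 53.5 CPM in the other livers. The 12 exocrine pancreas genes summed to 462 CPM in Rbfox2 KO 1 and to at most 17.2 CPM elsewhere.

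No nuclear respiratory chain gene passed the threshold between genotypes. Of the 85 genes, 82 had enough counts to be tested, and 0 had an adjusted p under 0.05 by the quasi-likelihood test of edgeR, as was the case for 0 of 14654 genes in all (0%). DESeq2 also called 0 of the 82, against 0.404% of all genes it tested. At an unadjusted p under 0.05 there was 1 gene, Cox6b2, or 1.22% of those tested, against 4.74% of all genes. Cox6b2 was also the only member whose genotype groups did not overlap in CPM, against 3.71% of all genes. The log2 fold changes of the 76 members that reached 10 CPM in at least 3 livers lay between -0.21 and 0.15, with SEs of 0.082 to 0.26. Every tested member except Cox6b2 had an adjusted p close to 1 by edgeR. In whole liver, fewer cells of a type and less RNA per cell cannot be told apart, which holds for all levels given here.

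The share of members that were lower in Rbfox2 KO depended on single livers and on the scaling. Of the 82, 59 had a log2 fold change below 0 (72.0%), against 49.8% of all genes. Without WT 1 the number was 27, and without Rbfox2 KO 3 it was 29. With library totals in place of trimmed mean of M-values (TMM) scaling, which moved the median of all genes from 0.00 to 0.11 on the log2 scale, 17 members were lower, against 26.3% of all genes. The median log2 fold change of each complex, minus that of all genes, was -0.06 for complex I, 0.00 for complex II, -0.06 for complex III, -0.12 for complex IV and -0.01 for complex V. Without WT 1 the medians were 0.04, 0.06, 0.02, 0.00 and 0.08 in the same order. Without Rbfox2 KO 2 they were -0.16, -0.05, -0.13, -0.14 and -0.09, and without WT 4, WT 5 and Rbfox2 KO 1 they were -0.19, -0.07, -0.20, -0.19 and -0.14. The main medians were smaller than the spread of the complexes between livers of 1 genotype, whose SD was 0.13 to 0.34 on the log2 scale.

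**Figure D1:**
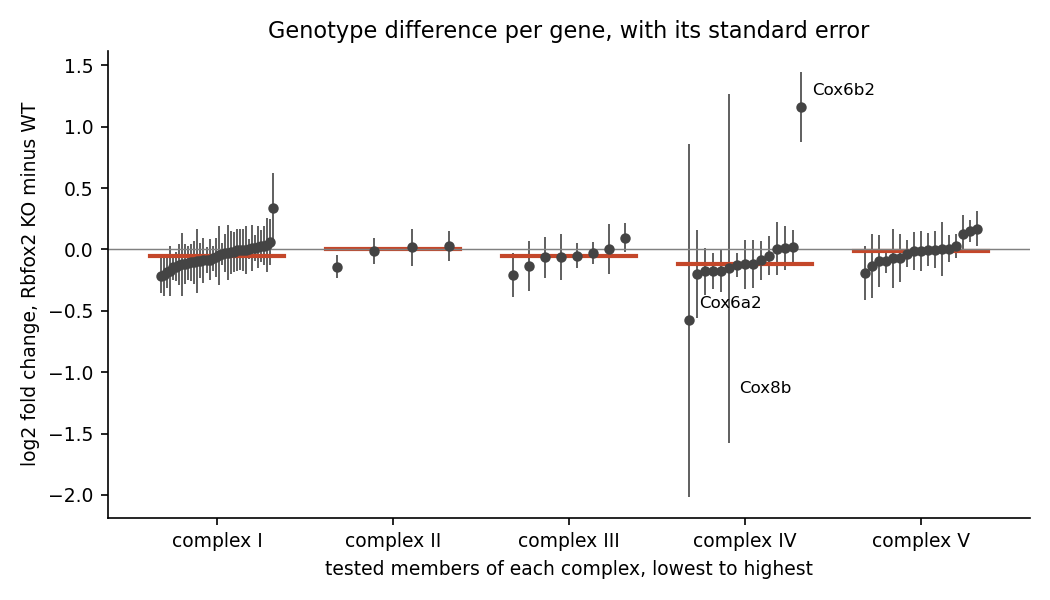
The log2 fold change between Rbfox2 KO and WT livers is plotted for the 82 tested genes, sorted within each complex, with bars for the SE and a red line at the median of the complex. Most genes lie within 0.21 of 0, Cox6b2 stands at 1.16, and the bars of Cox6a2 and Cox8b are the widest.

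Complex I takes electrons from NADH. Its 38 members include the flavoprotein and iron-sulfur subunits that carry electrons and a larger number of accessory subunits. All 38 were tested and 29 were lower in Rbfox2 KO, none at an unadjusted p under 0.05. Summed over the complex, the 5 WT livers had 3995, 3023, 3268, 2987 and 2476 CPM and the 3 Rbfox2 KO livers 3063, 3368 and 2616 CPM. The Rbfox2 KO values all fell within the WT range.

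The complex I genes with the smallest p were Ndufv3, an accessory subunit of the NADH-binding module, and Ndufa6, an accessory subunit of the LYR motif family. Ndufv3 was at 75.1, 56.8, 65.1, 58.8 and 48.8 CPM in WT 1 to 5, against 51.1, 60.6 and 46.0 CPM in Rbfox2 KO 1 to 3. This gave a log2 fold change of -0.21 ± 0.15 and an unadjusted edgeR p of 0.174. The groups overlapped, and WT 1 stood above all other livers. Ndufa6 averaged 93.0 ± 7.57 CPM in WT against 84.0 ± 7.71 CPM in Rbfox2 KO (log2 fold change -0.15 ± 0.10).

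Levels of different genes can be compared only per length. In RPKM, which is CPM divided by the merged exon length in kilobases, the complex I gene with the highest mean was Ndufb9, an accessory subunit of the membrane arm, at 198 ± 30.6 (SD over 8 livers). Ndufa4 was next at 191 ± 30.2 RPKM, and these neighbours did not differ beyond their spread. Divided by the length of the principal transcript instead, Ndufa4 came first at 433 RPKM and Ndufb9 second at 290 RPKM. Of Ndufb9, 23.4% of 50-base stretches also occur in another annotated transcript, so its counts are uncertain. Ndufa4 carries a complex I symbol but its protein is now placed in complex IV. The lowest tested gene was Ndufa4l2, the hypoxia-induced relative of Ndufa4, at 0.571 ± 0.140 RPKM. Its CPM ran from 0.420 in WT 2 to 0.878 in Rbfox2 KO 1, and it shares exon sequence with Shmt2 on the opposite strand.

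The spread between livers differed widely within complex I. Ndufa5, an accessory subunit of the matrix arm, had the largest SD within genotypes, 0.43 on the log2 scale. It was at 91.0, 51.9, 59.8, 54.7 and 42.4 CPM in WT 1 to 5, against 66.4, 64.3 and 37.5 CPM in Rbfox2 KO 1 to 3, with WT 1 highest and Rbfox2 KO 3 lowest. In contrast, Ndufs1, the iron-sulfur subunit that receives electrons from the flavin site, stayed between 89.2 and 97.5 CPM in all 8 livers. It was named after its values were seen, and it overlaps exons of Eef1b2 on the opposite strand.

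Complex II oxidises succinate and belongs to both the chain and the tricarboxylic acid cycle. Sdha, its flavoprotein, was at 351, 360, 333, 347 and 319 CPM in WT 1 to 5, against 287, 330 and 315 CPM in Rbfox2 KO 1 to 3. The groups overlapped through Rbfox2 KO 2, the log2 fold change was -0.14 ± 0.10, and the unadjusted edgeR p was 0.180. Sdha was the steadiest of the 4 genes.

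Sdhb, the iron-sulfur subunit, was at 165, 122, 120, 111 and 101 CPM in WT and at 132, 126 and 117 CPM in Rbfox2 KO, with the SD of the WT livers at 24.6 and that of the Rbfox2 KO livers at 7.27. Its difference between genotypes was 0.02 ± 0.15 (log2 ± SE). Sdhc and Sdhd anchor the complex in the membrane and bind ubiquinone. Sdhc averaged 135 ± 13.6 CPM in WT against 134 ± 9.88 CPM in Rbfox2 KO (log2 fold change -0.01 ± 0.11). Sdhd averaged 182 ± 21.7 CPM against 186 ± 18.7 CPM (log2 fold change 0.03 ± 0.12). Per length, Sdhd was highest at 149 ± 15.7 RPKM and Sdhc lowest at 41.6 ± 3.56 RPKM. No member of complex II shared 5% or more of its sequence with another transcript.

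Complex III hands electrons from ubiquinol to cytochrome c. Of its 8 members 6 were lower in Rbfox2 KO, none at an unadjusted p under 0.05, and the complex summed to 1269 ± 215 CPM in WT against 1223 ± 126 CPM in Rbfox2 KO. The smallest p belonged to Uqcr11, a small subunit, with 123 ± 27.9 against 107 ± 14.0 CPM, a log2 fold change of -0.21 ± 0.18 and an unadjusted edgeR p of 0.271. Uqcrfs1, the Rieske iron-sulfur protein, followed with 163 ± 21.1 against 174 ± 6.96 CPM (log2 fold change 0.10 ± 0.12). Uqcr11 also had the highest level per length, 182 ± 37.4 RPKM, while Uqcrc1, a core protein of the matrix face, had the lowest, 37.9 ± 2.73 RPKM. By principal transcript length Uqcrh led with 317 RPKM and Uqcrc2 was lowest with 82.6 RPKM.

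The 8 genes of complex III split in how they varied. Uqcrh, the acidic hinge protein that contacts cytochrome c1, was at 237, 156, 189, 161 and 123 CPM in WT 1 to 5, against 182, 205 and 135 CPM in Rbfox2 KO 1 to 3, the widest within-genotype SD of the complex (0.34, log2). Uqcrc2, the second core protein, was at 152, 166, 161, 154 and 156 CPM and at 141, 159 and 163 CPM. WT 1 was the highest liver for Uqcrh and the lowest WT liver for Uqcrc2. Uqcrc2 was named after its values were seen, and its exons overlap Pdzd9 on the opposite strand.

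Complex IV, cytochrome c oxidase, had 18 nuclear members, of which 15 were tested and 11 of those were lower in Rbfox2 KO. The isoforms used in most tissues were abundant. Cox6a1 had the highest level per length, 300.3 ± 65.3 RPKM (SD over 8 livers), followed by Cox6b1 at 266 ± 57.2 RPKM, a difference smaller than the spread of either. By principal transcript length Cox4i1 came first at 489 RPKM. Cox4i1, Cox6a1, Cox6b1, Cox7a2, Cox7b and Cox8a were at 383, 217, 197, 126, 160 and 132 CPM on average in WT and at 360, 200, 174, 127, 142 and 121 CPM in Rbfox2 KO. The largest of the 6 differences was that of Cox6b1, at -0.18 ± 0.19 (log2 ± SE), and none reached an unadjusted p under 0.05. Cox7a2l, which takes part in joining complexes III and IV into supercomplexes, averaged 94.3 ± 14.5 CPM in WT against 95.4 ± 9.62 CPM in Rbfox2 KO, and 17.7% of its 50-base stretches occur elsewhere.

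Cox6b2 was the member with the smallest p of all 82. It encodes the form of subunit VIb known from testis and lies on the minus strand of chromosome 7 (GRCm38, start 4751792, end 4753094). The WT livers had 11, 16, 13, 15 and 18 counts and the Rbfox2 KO livers 50, 20 and 33 counts, or 0.406, 0.517, 0.456, 0.524 and 0.532 CPM against 1.57, 0.786 and 0.922 CPM. Every Rbfox2 KO liver was above every WT liver. This was a log2 fold change of 1.16 ± 0.29 with an unadjusted edgeR p of 0.00220 and an adjusted p of 0.519, so it failed the correction over all genes. Across the alternatives the log2 fold change stayed between 0.80 and 1.34, and the adjusted p lay between 0.263 and 1.

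Its level was low. At 0.644 RPKM, Cox6b2 was the lowest tested gene of complex IV, while its partner Cox6b1 was at 266 RPKM. The liver with the most Cox6b2, Rbfox2 KO 1, also had the most pancreas transcript, with all 12 markers at 3 counts or more, and the most red blood cell transcript (2105 CPM against 740 to 1458 CPM). Without this liver the log2 fold change was 0.80 ± 0.29. WT 4 and WT 5, the WT livers with the most skeletal muscle transcript, had 0.524 and 0.532 CPM of Cox6b2. WT 1, WT 2 and WT 3 had 0.406, 0.517 and 0.456 CPM. The part of muscle transcript in the Cox6b2 level was not tested. Without WT 4, WT 5 and Rbfox2 KO 1 the log2 fold change was 0.89 ± 0.36. The 120 bases before the RefSeq start of each gene of the pair, on GRCm38.p6, are shown, and capitals mark the letters of the ETS motif searched below. In GENCODE M21, which gave the lengths used here, Cox6b1 starts further upstream, at base 30626151, so its capitals lie inside that gene. The part of these letters in the levels of the pair was not tested.
Cox6b1 (chr7:30626115-30626234, minus strand): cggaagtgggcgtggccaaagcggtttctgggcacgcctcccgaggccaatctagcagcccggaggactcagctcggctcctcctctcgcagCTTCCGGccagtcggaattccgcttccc
Cox6b2 (chr7:4753095-4753214, minus strand): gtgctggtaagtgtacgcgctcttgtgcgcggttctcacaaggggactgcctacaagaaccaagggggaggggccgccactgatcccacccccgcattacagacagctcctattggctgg

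Cox8a, the common form of subunit VIII, had the next smallest p in complex IV. It was at 142, 137, 130, 126 and 124 CPM in WT against 107, 124 and 131 CPM in Rbfox2 KO (log2 fold change -0.13 ± 0.10). The other isoforms were at or near the floor. Cox4i2, the lung form, had at most 0.157 CPM, and the testis forms Cox7b2 and Cox8c had 0 counts in all 8 livers, which allows up to 0.118 CPM in the library with the highest floor. These were the 3 members that could not be tested.

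The muscle forms Cox6a2 and Cox8b varied with the skeletal muscle transcripts, and the muscle form Cox7a1 did so only in part. Cox6a2 was at 0.554, 0.226, 0.140, 3.21 and 3.6 CPM in WT 1 to 5, against 2.95, 0.0393 and 0.112 CPM in Rbfox2 KO 1 to 3. Cox8b was at 0.849, 0.258, 0.140, 2.79 and 3.22 CPM and at 3.76, 0 and 0.140 CPM. Cox7a1 was at 2.21, 1.52, 1.54, 3.25 and 3.46 CPM and at 3.04, 2.0 and 1.23 CPM. In each of the 3 genes, WT 4, WT 5 and Rbfox2 KO 1 were the highest livers. Among the other livers, Rbfox2 KO 2 had the least muscle transcript (1.41 CPM). Its Cox7a1 level was nevertheless above those of WT 2, WT 3 and Rbfox2 KO 3.

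These are the 3 livers with the most skeletal muscle transcript. All 12 muscle markers had at least 3 counts in every liver but Rbfox2 KO 2, where 5 did, and Rbfox2 KO 3, where 11 did. Acta1, the skeletal muscle actin, had 53.9, 72.5 and 42.8 CPM in the 3 livers and at most 8.04 CPM in the others. Over the 8 livers, the mean log2 level of the 3 isoforms and that of the 12 markers had a Pearson correlation of 0.993, a Spearman correlation of 0.976 and a Pearson correlation of 0.981 without the 2 farthest livers, all after centring within genotype. The within-genotype SDs of Cox6a2, Cox8b and Cox7a1 were 2.18, 2.28 and 0.58 (log2), so the mean of the isoforms says least about Cox7a1. All points come from the same libraries and share their depth and scaling. Heart markers summed to 0.527 to 2.32 CPM. The 5 fat markers summed to 19.4 CPM in WT 4, to 4.17 to 8.12 CPM in the other WT livers and to 0.838 to 4.55 CPM in Rbfox2 KO, with Cidea at 19.2 CPM in WT 4. Ucp1, Adipoq, Plin1 and Lep were all highest in Rbfox2 KO 1, at 0.502, 0.972, 0.596 and 0.314 CPM. The part of fat transcripts in the isoform levels was not tested.

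The genotype differences of the muscle forms had wide errors and rested on single livers. They were -0.58 ± 1.44 for Cox6a2, -0.15 ± 1.42 for Cox8b and -0.20 ± 0.36 for Cox7a1 on the log2 scale. Without Rbfox2 KO 1 those of Cox6a2 and Cox8b became -4.21 and -4.14, and Cox8b then had an unadjusted edgeR p of 0.0495. Cox6a2 overlaps Itgad exons on the opposite strand.

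**Figure D2:**
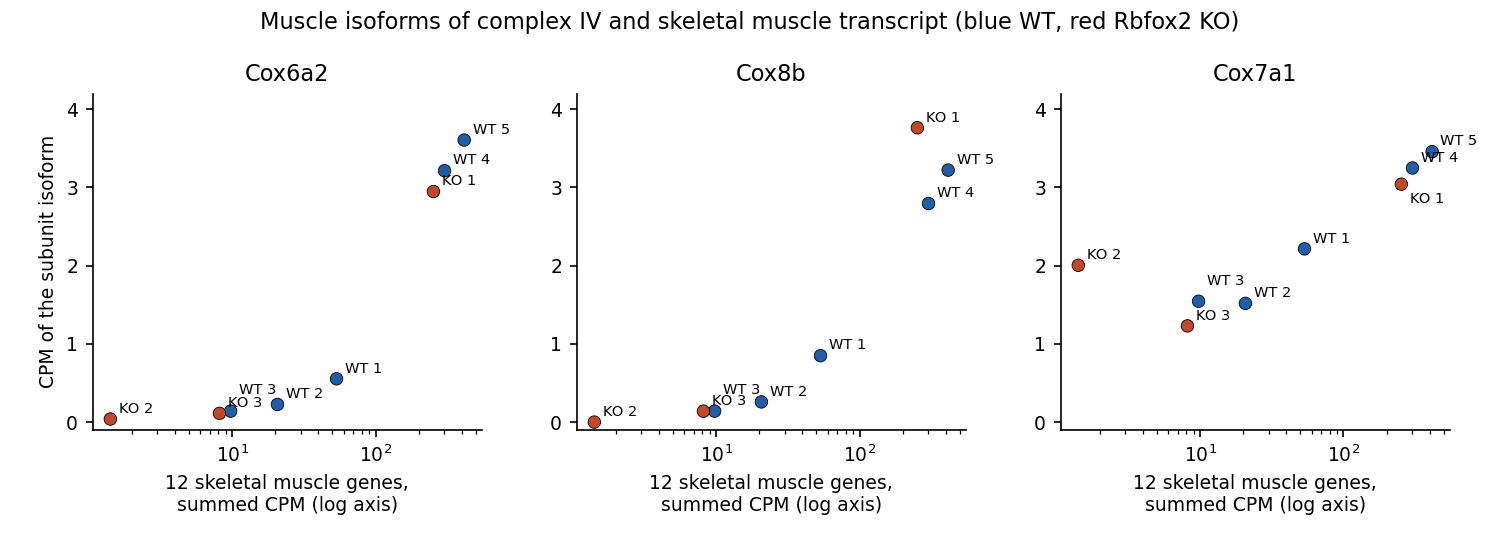
Each point is a liver, with the CPM of Cox6a2, Cox8b or Cox7a1 on the y axis and the summed CPM of 12 skeletal muscle genes on a log x axis (blue WT, red Rbfox2 KO). WT 4, WT 5 and Rbfox2 KO 1 lie at the right and are highest for all 3 isoforms, while Rbfox2 KO 2 lies at the left, at 1.41 CPM of muscle transcript.

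Complex V makes ATP. Its 17 members were all tested, 11 were lower in Rbfox2 KO, and the complex summed to 3805 ± 519 CPM in WT against 3790 ± 367 CPM in Rbfox2 KO. The smallest p was that of Atp5g2, of the 3 genes that encode the same mature c subunit of the proton-driven ring. It was at 75.4, 67.2, 71.4, 70.2 and 62.5 CPM in WT against 73.2, 79.0 and 78.8 CPM in Rbfox2 KO, with a log2 fold change of 0.15 ± 0.09 and an unadjusted edgeR p of 0.122. Only Rbfox2 KO 1 fell within the WT range. Of Atp5g2, 14.8% of 50-base stretches occur in other transcripts.

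The other c-subunit genes were Atp5g1, at 108 ± 19.9 and 107 ± 14.3 CPM, and Atp5g3, at 340 ± 55.95 and 371 ± 55.5 CPM. Per length Atp5g3 was highest of the 3 at 161 RPKM, with Atp5g2 at 43.1 RPKM and Atp5g1 at 22.0 RPKM. Atp5a1, the alpha subunit, had the highest level of complex V at 208 ± 14.8 RPKM, close to the catalytic beta subunit Atp5b at 192 ± 8.28 RPKM. By principal transcript length the order differed, with Atp5g3 first at 487 RPKM, Atp5b at 424 RPKM, Atp5e at 387 RPKM and Atp5a1 at 263 RPKM. Atp5b was at 817, 843, 830, 782 and 758 CPM in WT and at 776, 851 and 839 CPM in Rbfox2 KO, which varied less than most members. Atp5b was named after its values were seen.

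Atp5e, the epsilon subunit of the catalytic head, had the widest spread of complex V (within-genotype SD 0.43, log2). It was at 256, 144, 174, 157 and 112 CPM in WT 1 to 5, against 173, 180 and 108 CPM in Rbfox2 KO 1 to 3. Atp5s carries an Atp5 symbol but its protein is not a subunit of the enzyme. It was lowest, at 2.23 ± 0.261 RPKM, with a log2 fold change of 0.17 ± 0.14.

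The 76 members of at least 10 CPM moved together between livers, across all 5 complexes. Of them, 75 were higher in WT 1 than in WT 5, and 13 were over 2 times higher. WT 1 was the highest of the 8 livers for 67 of the 76 genes, against 24.1% of the other 6732 genes of that level. WT 5 was lowest for 54 and Rbfox2 KO 3 for 19. As a mean over genes of log2 CPM minus the mean of the 8 livers, the score of the 76 genes was 0.37, -0.02, 0.09, -0.03 and -0.32 in WT 1 to 5, against 0.01, 0.14 and -0.23 in Rbfox2 KO 1 to 3. The genotype means were 0.02 ± 0.25 in WT and -0.03 ± 0.19 in Rbfox2 KO.

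Complexes I, III, IV and V had nearly the same profile, and complex II a flatter one, although not once the trend on transcript length described below was removed. WT 1 exceeded WT 5 by 0.71 in complex I, 0.43 in complex II, 0.65 in complex III, 0.74 in complex IV and 0.70 in complex V (log2, members of at least 10 CPM). In ratios of CPM the median member was 1.68 times higher in WT 1 than in WT 5. In Rbfox2 KO 3, complex II was at -0.05 and the other complexes between -0.27 and -0.18. With the muscle isoforms and Cox6b2 included, complex IV gave 0.19 in place of 0.74, and its highest liver became Rbfox2 KO 1.

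**Figure D3:**
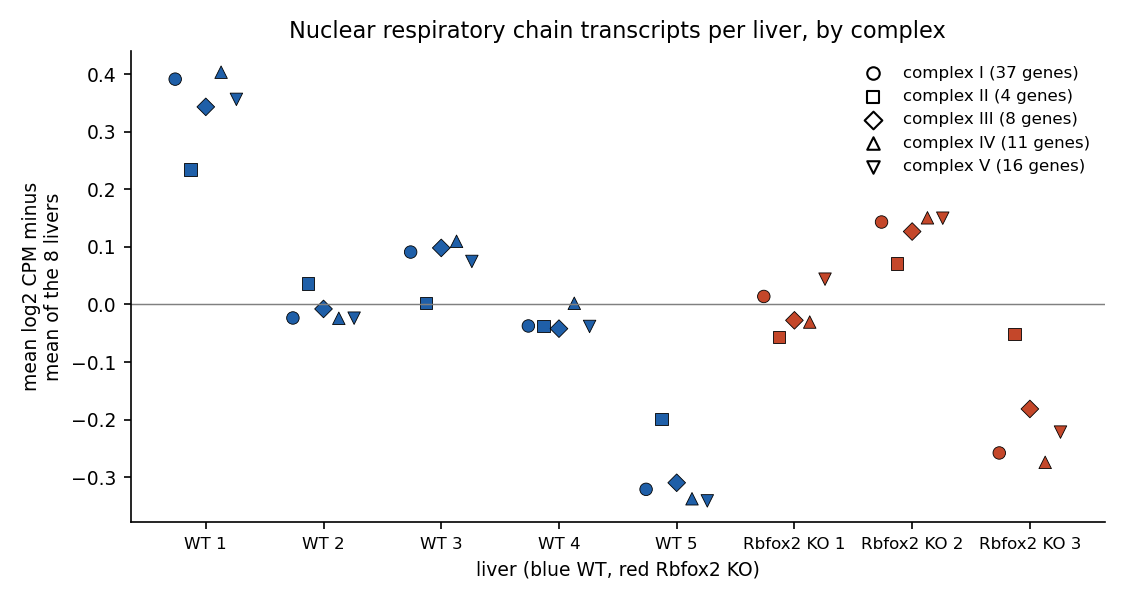
Each symbol is the mean over a complex's members of at least 10 CPM of log2 CPM minus the gene's mean of the 8 livers (y axis), by liver (x axis; blue WT, red Rbfox2 KO). The symbols of all 5 complexes are highest in WT 1 (0.23 to 0.40) and lowest in WT 5, with complex II nearest to 0 in both livers and in Rbfox2 KO 3.

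Within genotypes, the scores of the complexes had Pearson correlations of 0.915 to 0.999 over the 10 pairs and 8 livers, and of 0.611 to 0.998 without the 2 farthest livers. The lowest values were those with complex II. Between single genes of at least 10 CPM, the median Pearson correlation over pairs was 0.918 in complex I, 0.761 in complex II, 0.909 in complex III, 0.930 in complex IV and 0.904 in complex V. Over all 15 tested genes of complex IV, with the muscle isoforms and Cox6b2, it was 0.394. Pairs from different complexes had a median of 0.909. The median over pairs of all genes of that level was 0.0325. These values describe 8 livers that share depth and scaling, and they carry no test.

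Not every subunit took part. Of the 76 genes, 61 had a correlation above 0.8 with the mean of the other members, and 4 had one under 0.3, namely Uqcrc2 (-0.52), Cox8a (0.07), Atp5b (0.14) and Sdha (0.20). These 4 were named after their values were seen. Their WT 1 to WT 5 ratios were 0.973, 1.15, 1.08 and 1.10. Over the 20 core subunits, those that carry electrons, bind substrate or form the catalytic head or rotor, WT 1 exceeded WT 5 by 0.50 (log2). Over the 56 accessory subunits the difference was 0.76. Uqcrc1 and Uqcrc2, named core proteins above, were counted as accessory. Transcript length, described below, was not held equal between these sets.

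**Figure D4:**
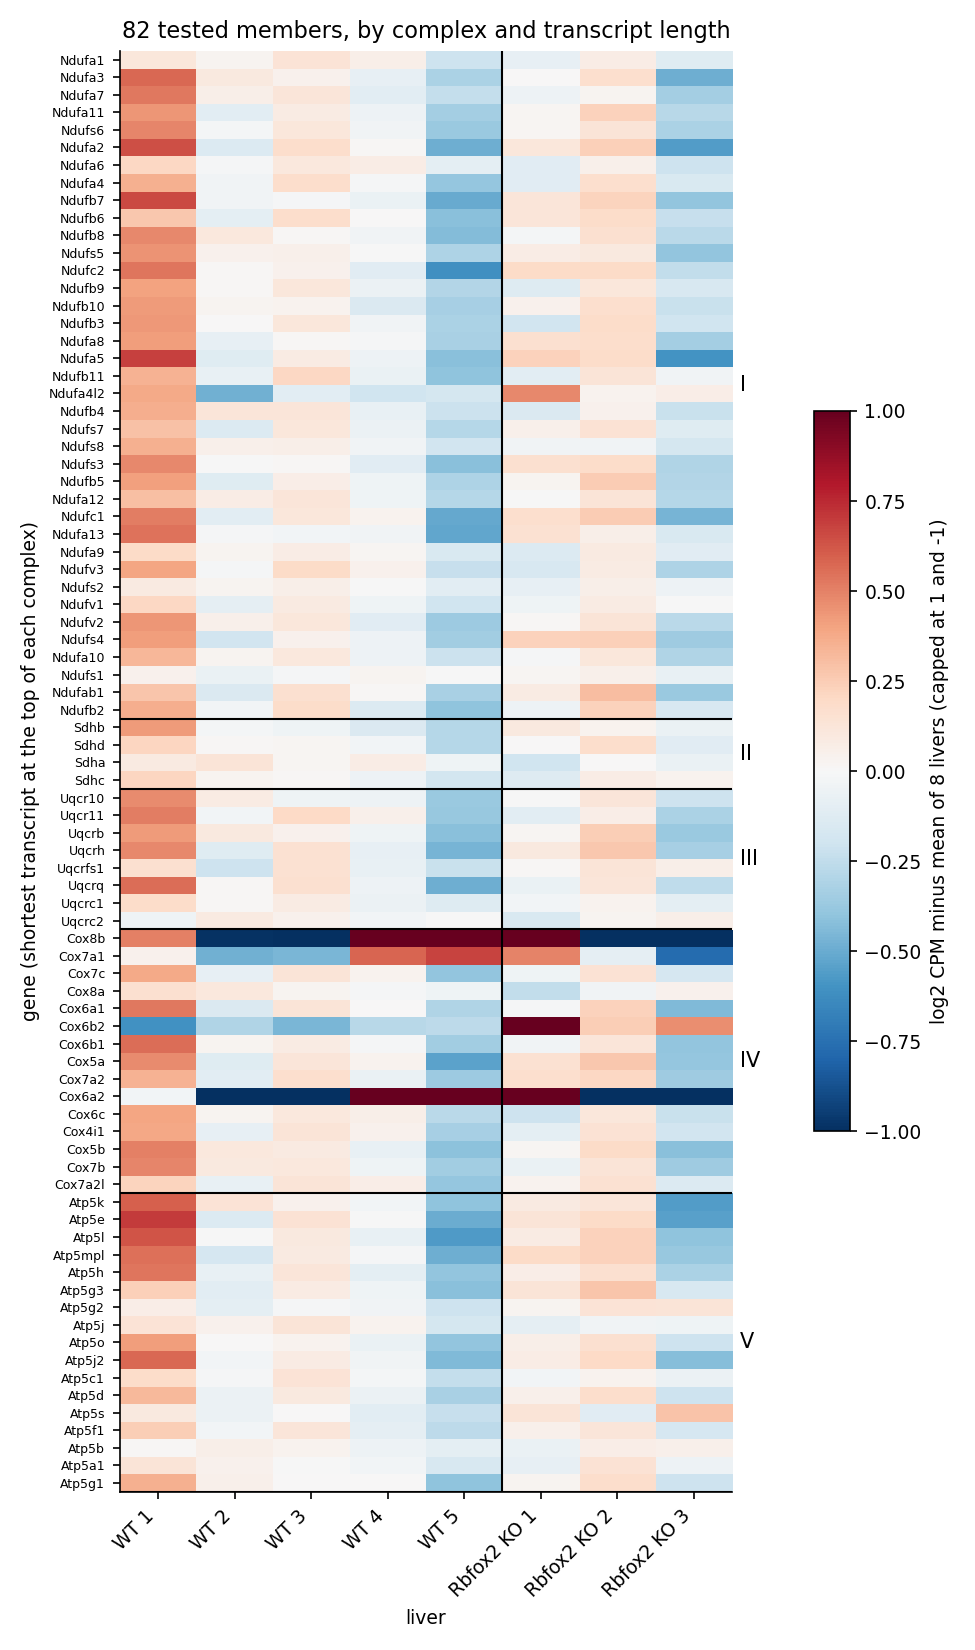
Rows are the 82 tested genes, sorted by complex and then by transcript length, columns are the 8 livers, and the colour is log2 CPM minus the gene's mean of the 8 livers, capped at 1 and -1. Most rows are red in WT 1 and blue in WT 5 and Rbfox2 KO 3, and the rows of Cox6a2, Cox8b and Cox7a1 show another pattern, red in WT 4, WT 5 and Rbfox2 KO 1.

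Transcript length moved with the same livers. The principal transcripts of the 82 genes had a median of 850 bases (849.5), against 2971 bases over all tested protein-coding genes, and 70 of the 82 were in the shortest of 5 length groups of near-equal size. Over the other 2470 genes of that group the score was 0.17 in WT 1 and -0.16 in WT 5, and over the longest group it was -0.20 in WT 1 and 0.24 in WT 5. The 38 members with longer transcripts differed by 0.59 between WT 1 and WT 5, and the 38 with shorter ones by 0.79. In Rbfox2 KO 1 the short genes as a whole stood at 0.15 while the 76 members stood at 0.01.

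The covariation over the 76 members was smaller when the trend on length was subtracted in each liver. Members of similar length receive a similar correction in a liver, so this step can itself add shared variation. No value over pairs of all genes was set beside the corrected ones. The part of length in the covariation was therefore not tested. The difference between WT 1 and WT 5 over the 76 members fell from 0.69 to 0.30 on the log2 scale, and the median correlation between pairs of members fell from 0.911 to 0.706. In complex II the median correlation was 0.839 after this step, against 0.761 before it. The difference between WT 1 and WT 5 was then 0.33 in complex I, 0.32 in complex II, 0.22 in complex III, 0.22 in complex IV and 0.31 in complex V. The corrected scores were 0.17 in WT 1, -0.13 in WT 5, -0.16 in Rbfox2 KO 1, 0.16 in Rbfox2 KO 2 and -0.11 in Rbfox2 KO 3. Rbfox2 KO 1, at 0.01 before this step, became the lowest liver.

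**Figure D5:**
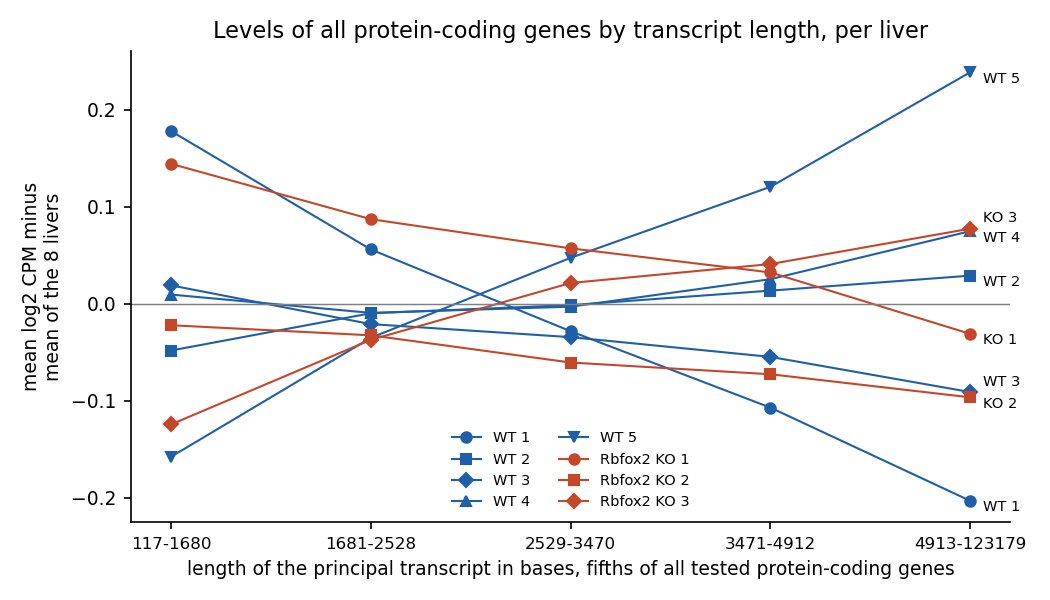
All tested protein-coding genes are split into 5 groups of near-equal size by principal transcript length (x axis), and the mean log2 CPM minus the mean of the 8 livers is drawn for each liver (y axis; blue WT, red Rbfox2 KO). WT 1 falls from 0.18 in the shortest group to -0.20 in the longest, and WT 5 rises from -0.16 to 0.24.

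Genes that work with the nuclear subunits were compared as lists, together with cytosolic ribosomal protein symbols. Over the 8 livers, within genotypes, the score of the 76 members had a Pearson correlation of 0.987 with that of 77 mitochondrial ribosomal protein genes (0.953 without the 2 farthest livers). The values were 0.978 with 46 assembly factors (0.909), 0.938 with 92 genes with cytosolic ribosomal protein symbols (0.842) and 0.886 with 13 genes of the tricarboxylic acid cycle (0.870). With the 13 transcripts of mitochondrial DNA the value was -0.183 (-0.561). The mitochondrial transcripts were highest in Rbfox2 KO 3, at 0.25, and lowest in Rbfox2 KO 1, at -0.37, and so did not follow the nuclear subunits of the same complexes. With 12 regulators of mitochondrial biogenesis the value was -0.545 (-0.482). No length trend was removed from these list values. Median principal transcript lengths were 1316 bases (mitochondrial ribosomal), 1712.5 (assembly), 886.5 (cytosolic ribosomal), 2544 (tricarboxylic acid cycle), 784 (mitochondrial DNA) and 3705.5 (biogenesis). No list chosen by length alone was set beside them, and the part of transcript length in these correlations was not tested.

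None of these lists had a gene past the adjusted threshold between genotypes by edgeR or DESeq2. At an unadjusted p under 0.05 by edgeR, which 4.74% of all genes passed, there were 2 of 13 genes of the tricarboxylic acid cycle, 1 higher and 1 lower. Fh1, the mitochondrial fumarase, was at 148 ± 16.2 CPM in WT against 196 ± 17.5 CPM in Rbfox2 KO (log2 fold change 0.41 ± 0.11; edgeR adjusted p = 0.708). Suclg2, the GTP-linked succinyl-CoA ligase subunit, was at 210 ± 16.4 against 172 ± 12.9 CPM (log2 fold change -0.29 ± 0.10; edgeR adjusted p = 0.890). Among 46 assembly factors 1 was lower, Cmc2, at -0.32 ± 0.13 (log2 ± SE). Among the 92 cytosolic ribosomal symbols 1 was lower, Rps6ka1, which encodes a kinase and not a ribosomal protein. There were 0 among the 77 mitochondrial ribosomal protein genes, the 13 mitochondrial transcripts, the 5 electron carriers and the 12 biogenesis regulators.

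The regulators known to act on these genes did not pass the test. Ppargc1a, the coactivator that raises mitochondrial gene expression, was at 6.23 ± 1.36 CPM in WT against 8.01 ± 2.58 CPM in Rbfox2 KO (log2 fold change 0.37 ± 0.24). Nrf1, a transcription factor of many respiratory subunits, was at 6.31 ± 0.381 against 7.12 ± 0.458 CPM (log2 fold change 0.17 ± 0.11). Gabpa, an ETS factor with the same role, was at 26.7 ± 3.99 against 25.7 ± 3.75 CPM (log2 fold change -0.06 ± 0.14). Cytochrome c, Cycs, was at 134 ± 15.4 and 145 ± 27.0 CPM.

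The promoters of the members were searched for the motifs of factors known to act on them. RefSeq windows of GRCm38.p6, 250 bases before to 50 after the start, were found for 69 of the 85 genes, 67 by symbol and 2 by an older name, in 74 windows. The motifs searched on both strands were TGCGCATGC for NRF1, CCGGAAG for ETS factors, TCAAGGTCA for estrogen-related receptors (ERR) and AAGATGGCG for YY1, and none of these strings lies within another. NRF1 letters were found in 5 of the 74 windows (6.76%), against 1.52% of all 32851 windows. ETS letters were found in 16 (21.6%, against 8.86%), YY1 letters in 7 (9.46%, against 1.40%) and ERR letters in 2 (2.70%, against 0.423%). At least 1 of the 4 was in 27 of the 74 windows (36.5%, against 11.6% of all). Neither the 74 nor the 32851 windows were limited to genes with enough counts to be tested.

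By complex, ETS letters were in 4 of 35 windows of complex I, 2 of 3 of complex II, 2 of 5 of complex III, 3 of 13 of complex IV and 5 of 18 of complex V. YY1 letters were in 5 windows of complex I and 2 of complex V. Stretches of 30 bases before the RefSeq start are shown for 1 or 2 genes of each complex as examples of where these letters lie. The letters of any of the 4 motifs, on either strand, are in capitals.
Ndufa6 (complex I, NRF1, chr15:82354355-82354384, minus strand): ccgcggtagaGCATGCGCAttgcagagccc
Sdhd (complex II, ETS, chr9:50603877-50603906, minus strand): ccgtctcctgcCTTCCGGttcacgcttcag
Uqcr11 (complex III, ETS, chr10:80406869-80406898, minus strand): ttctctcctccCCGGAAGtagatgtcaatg
Cox6b1 (complex IV, ETS, chr7:30626124-30626153, minus strand): tcctctcgcagCTTCCGGccagtcggaatt
Atp5e (complex V, ETS, chr2:174464185-174464214, minus strand): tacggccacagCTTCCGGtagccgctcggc
Atp5g3 (complex V, ERR, chr2:73911359-73911388, minus strand): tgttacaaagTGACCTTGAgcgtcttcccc
Of the genes shown, Atp5e was among those with the widest spread between livers and Sdhd among the narrower ones. A match describes letters in the window and does not show that a factor is bound there. Whether a motif went with the variation between livers was not tested.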

How the data were processed

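Counts were examined in 8 livers, 5 WT and 3 Rbfox2 KO, grouped by their labels. The deposited values are raw counts per Ensembl gene, with 0 columns without a sample. The authors made them from poly(A)-selected RNA (NEBNext Ultra II) with paired reads of 100 bases, aligned with TopHat2 2.0.11 to GRCm38 and counted with featureCounts. Neither the strand setting of the counting nor its handling of multiply aligned reads was given in the sources used here, so overlapping and near-identical genes are uncertain.

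Symbols and lengths came from GENCODE M21, which held 45229 of the 46078 genes. Genes were filtered with filterByExpr and scaled by TMM, and genotype was tested with the robust quasi-likelihood test of edgeR 4.0.16 in R 4.3.3 (two-sided), with Benjamini-Hochberg adjustment over 14654 genes at 0.05. The SE is the log2 fold change divided by the square root of F. Correlations used log2 CPM with a prior count of 2, centred within genotype. The test was run on simulated counts with known changes, whose outcome is not given here. Rbfox2 itself, at a log2 fold change of -1.03, did not pass the edgeR threshold (adjusted p = 0.328). A member without a call can therefore still differ. DESeq2 1.42.0, limma-voom 3.58.1, other scalings, filters and gene sets, a fit with sample number as a block and fits without each sample were alternatives. Some were added after the data were seen: those without WT 4, WT 5 and Rbfox2 KO 1, without the length trend, with the principal transcript length, and those for the score differences and the number of members lower.

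The members and lists were chosen with earlier results of these data known. Named genes were, per complex, the 2 with the smallest p, the highest and lowest per length and the widest spread, plus isoform groups, complex II and genes whose groups do not overlap. Whether the samples came from separate animals was not stated, so p-values measure the spread between these samples. Intervals and floors cover counting error only. No pair of samples in a group agreed within sampling noise (chi-square per degree of freedom of 45.5 to 346).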

Additional observations from a re-analysis of the deposited data

Results flagged for a closer look

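Reads counted for Ndufb4c, a processed pseudogene of the complex I gene Ndufb4 on chromosome 15, lay outside the comparison. Its row held 344 to 597 counts, with the highest level at 22.0 CPM in WT 1. Of Ndufb4, 37.0% of 50-base stretches occur in other transcripts, Ndufb4c among them, so the counts of both are uncertain. The other 10 pseudogene rows had at most 0.664 CPM. In WT, 0 of 37 values had a single liver far from the rest, where chance would give 1.85.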

How the results depend on the processing

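The number of members past the adjusted threshold was 0 under all 16 alternatives, at which edgeR called 0 genes in all, except 6 without a filter, and DESeq2 called 59. At an unadjusted p under 0.05 there was 1 member (Cox6b2), against 4.74% of all genes. With the stricter filter, which removed it, there were 0, against 4.6% of all genes. When each sample was left out there were 1 to 2, against 3.51 to 6.46% of all genes. The 2 were Cox6b2 and Cox8b, without Rbfox2 KO 1, where 3.83% of all genes passed. The 59 members lower in Rbfox2 KO became 17 with library totals and 27 to 73 when each sample was left out (27 without WT 1, 29 without Rbfox2 KO 3). The median of each complex moved by less than the spread between samples under all 90 alternatives, though its sign turned for complexes I, III, IV and V without WT 1, for I, IV and V without Rbfox2 KO 3, and for V with library totals and limma-voom. Complex II turned under the replicate block (-0.098), without WT 4, WT 5 and Rbfox2 KO 1, and without WT 3, WT 4, WT 5 or Rbfox2 KO 2 alone. Under the block complexes I, III, IV and V were at -0.18, -0.18, -0.17 and -0.14.

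The fit with sample number as a replicate block gave 4 of 82 members at an unadjusted p under 0.05, against 5.04% of all genes. These were Ndufb4, Ndufa7, Atp5k and Cox6b2, and 0 passed after adjustment. The numbers were not taken to pair the samples, since same-numbered samples had correlations of 0.163, 0.0484 and 0.170 and not every sample correlated best with its own number. Under the block the log2 fold changes of Sdhb, Sdhd, Cox6a2, Cox7a1 and Cox8b turned to -0.10, -0.058, 0.95, 0.19 and 0.79.

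Other changes of sign concerned genes with differences under their error. Without WT 4, WT 5 and Rbfox2 KO 1, Sdhb was at -0.15 and Sdhd at -0.043. With library totals Sdhc was at 0.093 and Cox8b at 0.11, and without a filter Sdhc was at 3.4e-05. When each sample was left out, Sdhb ran from -0.048 to 0.14, Sdhc from -0.057 to 0.041, Sdhd from -0.049 to 0.10, Cox6a2 from -4.21 to 0.017, Cox7a1 from -0.59 to 0.076 and Cox8b from -4.14 to 0.40. Of 249 values for single genes, 225 kept direction and side of the threshold, 23 turned, and Rbfox2 passed it with DESeq2 (adjusted p = 0.0019).

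The median correlation between pairs kept within the spread in 89 of 90 cases, the exception being complex I without the length trend (0.685, all tested members). The spread here was the SD over pairs, which was 0.60 in complex IV and 0.48 in complex III, so wide moves stayed within it. Complex IV, at 0.394, ran from 0.029 (members sharing under 5% of their transcript) to 0.942 (without WT 4, WT 5 and Rbfox2 KO 1). Without WT 1 it was 0.147, and complex III fell from 0.909 to 0.622 without the length trend. For complex IV with all tested members, the difference of 0.19 between WT 1 and WT 5 turned to -0.00147 with library totals and -0.38 without the length trend. The causes were not tested. Genes near the floor, such as Cox6b2 with 11 to 50 counts, are limited by depth.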
